A study of Mus musculus with 17 samples.

Results

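Germinal centre (GC) B cells that still carried the starting immunoglobulin sequences on 7 days post-immunization (dpi) were compared with cells of the same mouse that had already collected at least 4 mutations. The cells came from the untreated 7 dpi mice of a time course in 2 experiments, with 6 mice (M01 to M06) in experiment 1 and 3 mice (A1 to A3) in experiment 2. In that model, B1-8hi B cells, with the knock-in heavy chain of a receptor for the hapten NP, were transferred into CD45.1 hosts primed with ovalbumin (OVA). The hosts were immunized in the footpad with NP-OVA in alum. GC B cells of the draining lymph nodes were marked with 2 hashtag antibodies per mouse, sorted as B220+ FAS+ CD38-, pooled, and sequenced as 5′ single-cell libraries of mRNA, hashtags and immunoglobulin. In the paper's model a minority of the transferred cells expressed the receptor DEC-205, and the others lacked its gene, *Ly75*. For this time course the paper describes the cells whose mutations it counted as DEC-205-positive. The 2 kinds were not told apart here, and whether all cells compared were of the first kind was not checked. None of these mice had received the DEC-205 antibody that delivers OVA to the DEC-205-expressing cells at later times of the course. Mice of both sexes were used, and their age is stated in the sources as a single range for all experiments, not per mouse. The transferred cells all share 1 heavy-chain rearrangement, in hosts that also kept B cells of their own. The paper counted the NP-binding cells before transfer and analysed only cells with the light-chain pairing that is used below.

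Cells were chosen by their own sequences. Of 5922 cells assigned to these mice, 2891 (48.8%) had exactly 1 productive *Ighv1-72*/*Ighj2* heavy chain and 1 productive *Iglv1*/*Iglj1* light chain, 63.2% of the cells in experiment 1 and 29.9% in experiment 2. Of these, 2878 had both chains of the common length, and 2873 also had at least 200 genes and under 10% mitochondrial transcripts. Bases were compared with the most frequent sequence of each chain from framework 1 to framework 4. Unmutated cells had 0 differences over both chains, and mutated cells had 4 or more. There were 484 unmutated cells (16.8%) and 831 mutated cells (28.9%), together 1315 of the 69340 cell barcodes in the 6 pools of the whole series, and 1558 cells (54.2%) with 1 to 3 mutations lay between them. The share of unmutated cells ran from 5.56% in M06, with 10 cells, to 24.2% in A1, with 70 cells. A mouse gave between 10 and 84 unmutated and between 32 and 137 mutated cells.

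Somatic hypermutation (SHM) changes single bases of the rearranged V genes of GC B cells, and the changed receptors are then tested for how well they take up antigen. GC B cells move between a dark zone (DZ), where they divide and mutate, and a light zone (LZ), where they present antigen to T follicular helper cells and are selected. A B cell that leaves this cycle can become a plasma cell, which secretes its immunoglobulin, or a memory B cell. Mutations are passed on to daughter cells and are not undone, so a cell carries those of its whole line of descent.

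The sequences that define the classes are shown because each base difference from them moved a cell from one class towards the other. Capitals mark the bases that were changed in at least 5% of the mutated cells. Regions are those of the deposited contig annotation, and positions are counted from 1 at the first base of framework 1 of each chain. The light chain had no such base in frameworks 1 to 3.
Heavy chain, frameworks 1 to 3, positions 1 to 285: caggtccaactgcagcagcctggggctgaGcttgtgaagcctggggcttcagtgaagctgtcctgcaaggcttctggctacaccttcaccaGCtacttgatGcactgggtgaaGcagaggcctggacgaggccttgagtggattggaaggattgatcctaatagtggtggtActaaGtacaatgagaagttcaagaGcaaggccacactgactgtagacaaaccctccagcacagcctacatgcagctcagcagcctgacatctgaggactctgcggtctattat
Heavy chain, CDR3 and framework 4, positions 286 to 361: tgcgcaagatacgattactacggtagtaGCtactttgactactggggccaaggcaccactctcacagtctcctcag
Light chain, CDR3 and framework 4, positions 268 to 328: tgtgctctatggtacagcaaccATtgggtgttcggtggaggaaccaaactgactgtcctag

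In GRCm39 the first 285 heavy-chain bases map to chromosome 12 at 115721613 to 115721897 (minus strand), which is within exon 2 (115721604 to 115721908), the coding exon of *Ighv1-72* that holds frameworks 1 to 3. They differed from the genome at 1 position, G98T in framework 2 (genome base first), a replacement change. The first 267 light-chain bases map with 0 differences to chromosome 16 at 18903794 to 18904060 (minus strand), within exon 2 of *Iglv1* (18903767 to 18904071). The heavy-chain reference was carried by 841 of the 2873 cells (29.3%), among 1587 distinct heavy-chain sequences. The light-chain reference was carried by 1454 cells (50.6%), among 676 distinct sequences. By construction the 484 unmutated cells shared 1 pair of sequences, found in all 9 mice, while the 831 mutated cells carried 831 different pairs, so none of the mutated cells was a copy of another.

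Mutation numbers chose the classes and are given as a description. Mutated cells carried a mean of 5.40 mutations (median 5, highest 14), 3.74 in the heavy and 1.65 in the light chain, and their mean per mouse ran from 4.93 in A2 to 6.0 in M06. On either side of the threshold, 439 cells had 3 mutations and 319 had 4. Of these neighbours 46.9% and 49.5% were in G0-G1, their medians were 7288 and 7399 unique molecular identifiers (UMIs, counted transcripts) per cell, and a UMI of *Slpi*, which encodes a secreted protease inhibitor, was found in 19.8% and 13.5%.

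Within mutated cells, the changes gathered in the complementarity-determining regions (CDRs), the loops that contact antigen. Heavy-chain CDRs had 1.94 mutations per 100 bases and cell against 0.764 in the frameworks, and light-chain CDRs had 1.24 against 0.202, or 0.888 with the base of the V-J joint at position 291 left out. The most changed heavy-chain positions were 315 and 314 of CDR3, changed in 14.8% and 14.6% of mutated cells, 197 of framework 3 (14.3%) and 92 of CDR1 (11%). Their commonest changes were C315T, which is silent, and the replacements G314A, G197A and G92A. Each of these positions was changed, to any base, in cells of all 9 mice. At the other end, 55 of the 361 heavy-chain positions (15.2%) and 99 of the 328 light-chain positions (30.2%) were unchanged in all mutated cells. In the heavy chain 74.4% of the mutations replaced an amino acid, and in the light chain 63.4% did, or 79.8% with position 291 left out.

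The base context of the changes was read in the triplets that SHM is known to favour. Bases C of AAC, AGC, TAC and TGC, with G of the complementary GTT, GCT, GTA and GCA, made up 58 of the 361 heavy-chain bases (16.1%). They held 44.7% of the heavy-chain mutations of mutated cells, so that a base in such a triplet was changed in 2.88% of cells on average, against 0.684% for any other base. Positions 314 and 92 are the G, and 315 and 93 the C, of the capital GC pairs printed above. Of all heavy-chain mutations of mutated cells, 35.3% were at G, 24% at C, 30% at A and 10.6% at T.

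One light-chain position stood apart. Position 291, the last base of the codon where V and J were joined, was T in the reference and C in 34.1% of mutated cells and was changed in 27.3% of the cells with 1 to 3 mutations. T291C is silent, and a base of the joint can come from the joining itself as well as from SHM. These origins cannot be told apart in the sequences. It was 1 of the 4 mutations of 103 of the 319 cells with exactly 4. With the codon from 289 to 291 left out of the count, a choice made after seeing the data, the classes held 671 and 689 cells, and 1284 and 1276 genes were called in the comparison described below.

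**Figure D1:**
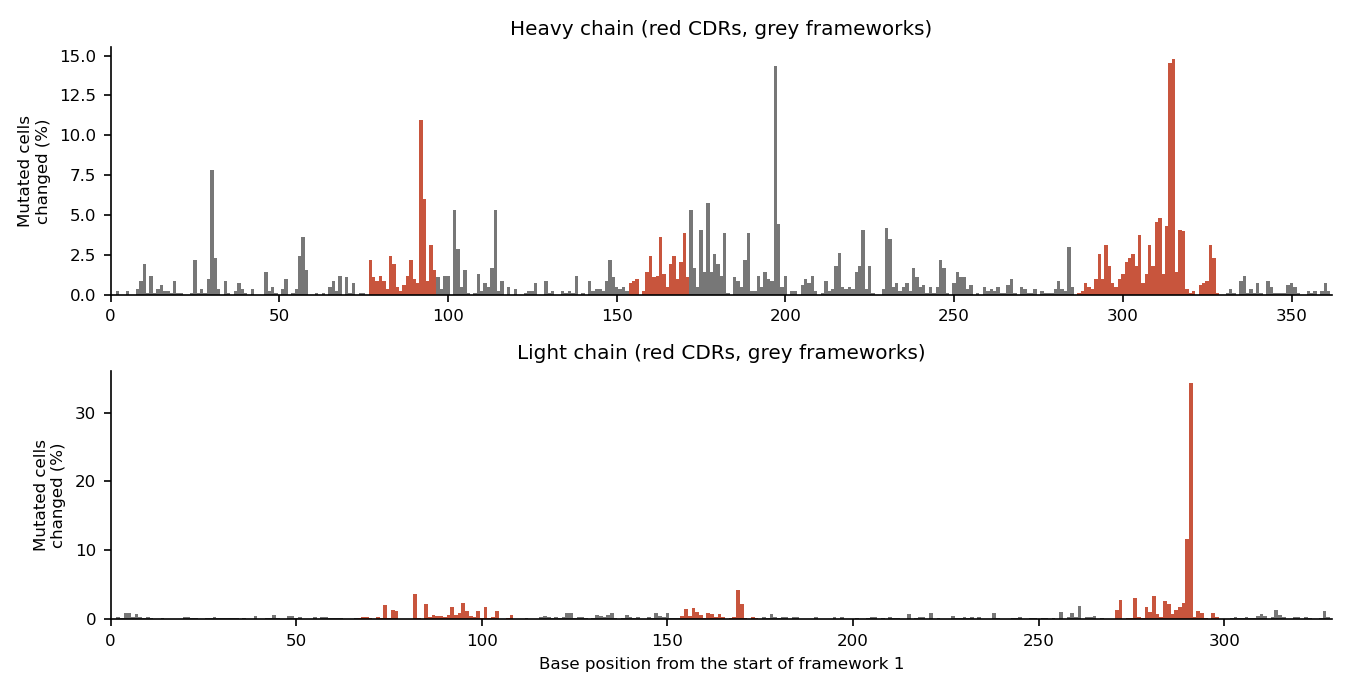
Share of the 831 mutated cells (y axis, percent) changed at each base of the heavy chain (361 bases) and of the light chain (328 bases), counted from the first base of framework 1 (x axis), with CDR bases in red and framework bases in grey. The highest heavy-chain bars are positions 315, 314 and 197, at 14.8%, 14.6% and 14.3%, and light-chain position 291 stands at 34.3%; the y axes differ between the chains.

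The libraries were checked for depth and identity before the classes were compared. UMIs summed over a class and mouse ran from 71821, for the 10 unmutated cells of M06, to 1477004. Markers of GC B cells were abundant in both classes (12 of 12 detected), with a summed level of 5305 to 7992 counts scaled to a common library total (CPM, the count per 1000000 summed UMIs) per mouse in unmutated and 7820 to 10962 in mutated cells. T cell, myeloid, stroma and red cell marker lists each summed to at most 16.2 CPM, and *Cd8a*, *C1qa* and *Col1a1* were at 0 in both classes. The 8 naive or resting B cell markers, *Fcer2a* and *Cd38* among them, moved with the class, at 69.7 to 444.4 CPM (median 191.6) in unmutated and 308.4 to 708.7 CPM (median 442.1) in mutated cells, higher in unmutated cells in 1 of 9 mice. None was at 0 in either class, 2 of the 5 that could be tested were lower, and their part in the results on B cell, MHC class II and LZ genes was not tested. The 2 pools shared 94 cell barcodes, which belong to separate libraries, and doublets of 1 mouse were not searched for.

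Unmutated cells held more RNA. Their median per mouse was between 6191 and 14526 UMIs per cell, against 5476 to 7875 in mutated cells. The ranges overlapped through M06, whose unmutated cells had the lowest value of their class. In all 9 mice the unmutated class was deeper, by 5062 ± 2013 UMIs (SD, n = 9) or 1.73 ± 0.298 times (adjusted p = 0.00879, exact two-sided sign-flip permutation test, adjusted by Benjamini-Hochberg over 9 measures; 9 mice cannot give a raw p below 0.00391). Cells with 1 to 3 mutations lay between, at 8591 ± 1099 UMIs (SD, n = 9). Unmutated cells also had more detected genes, 3590 ± 463.3 against 2614 ± 194.9 per cell (SD, n = 9), and more hashtag UMIs in 8 of 9 mice, 2064 ± 561.8 against 1655 ± 395.6.

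The immunoglobulin libraries followed the same order. The heavy-chain contig rested on 47.9 ± 17.2 UMIs in unmutated and 35.3 ± 12.4 in mutated cells (SD, n = 9, medians per mouse), higher in 8 of 9 mice (adjusted p = 0.0117, same exact test). The light-chain contig rested on 194.0 ± 63.7 against 113.4 ± 28.1 UMIs, higher in 9 of 9 mice (adjusted p = 0.00879). Few contigs were thin, with fewer than 5 heavy-chain UMIs in 4 unmutated and 7 mutated cells. Because depth moves with the class, every measure below was also computed in cells thinned to 4718 UMIs each and in cells with between 7000 and 12000 UMIs.

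Cell-cycle phase differed between the classes. Unmutated cells were mostly in S and G2-M, the phases of DNA replication and of preparation for mitosis, while most mutated cells were in G0-G1, the phase before replication. The G0-G1 share was between 5.26% and 28.6% in the unmutated cells of 8 mice and 80% in M06. In mutated cells it was between 32.2% in A2 and 79.2% in M06. The means were 24.9% ± 22 and 56.8% ± 12.3 (SD, n = 9), a difference of -31.9 percentage points, and the share was lower in unmutated cells in 8 of 9 mice (adjusted p = 0.0117, exact two-sided sign-flip permutation test). The exception was M06, where 8 of 10 unmutated cells (80%, exact 95% interval 44.4% to 97.5%, counting error alone) and 57 of 72 mutated cells were in G0-G1.

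The G2-M share made up most of this. It was 43.7% ± 11.4 in unmutated and 20.2% ± 6.74 in mutated cells (SD, n = 9), higher in 9 of 9 mice (adjusted p = 0.00879, same exact test). The lowest pair was that of M06, with 20% against 9.72%, and the widest difference was that of A3, with 57.9% against 18.8%. The S share was 31.4% ± 12 against 23% ± 7.12, higher in 8 of 9 mice (adjusted p = 0.0352, exact). In M06 it was 0 of 10 unmutated cells, which allows a share of up to 30%, against 11.1% of mutated cells. The S call depended on single mice: it passed with M06 or A2 left out, and with any 1 of the other mice left out it ran from 7.54 percentage points without M05 to 8.52 without M02, with adjusted p between 0.0502 and 0.0703 (exact).

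Over the pooled cells of 9 mice, the G0-G1 share was 20% at 0 mutations, 27.8% at 1, 34.2% at 2, 46.9% at 3 and 75% at 8 or more. The G2-M share was 45.2% at 0 and 8.33% at 8 or more, and the S share 34.7% and 16.7%, both with small steps in the other direction on the way, as from 20.2% in G2-M at 5 to 22.1% at 6. The median UMI count per cell went from 12614 at 0 to 6075 at 8 or more. The class means of cells with 1 to 3 mutations, 36.2% in G0-G1, 29.5% in S and 34.3% in G2-M, were between those of the other classes in each phase.

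**Figure D2:**
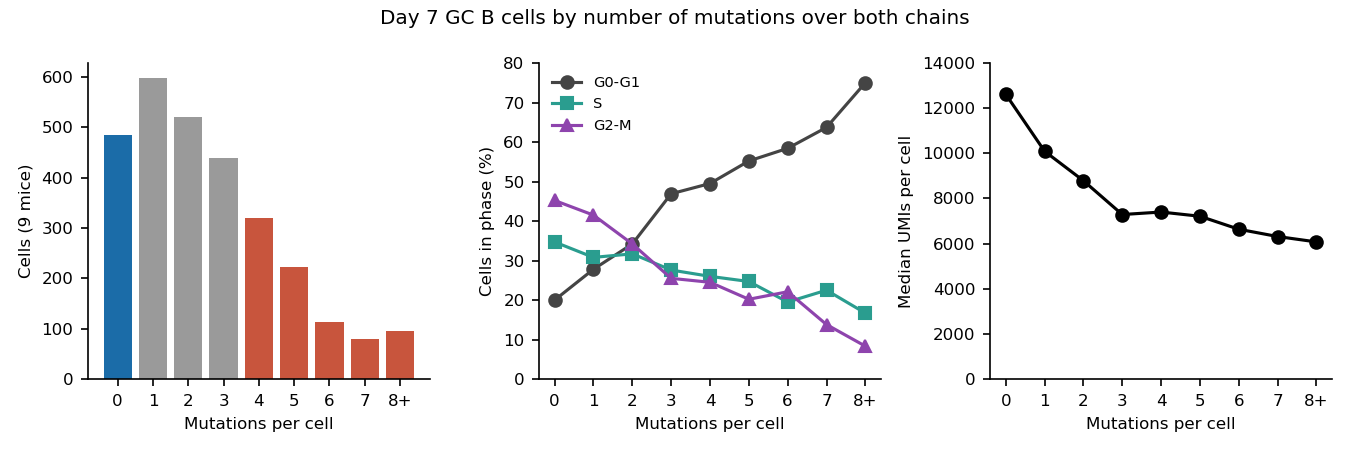
Cells of all 9 mice by their number of mutations over both chains (x axis): the number of cells (left; blue unmutated, grey 1 to 3, red mutated), the share in each phase (middle, percent) and the median UMIs per cell (right). From 0 to 8 or more mutations the G0-G1 share goes from 20% to 75% and the median depth from 12614 to 6075 UMIs; cells are pooled over mice, so no error is drawn.

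At matched depth the phase result depended on how depth was matched. In cells thinned to 4718 UMIs the differences were -31.6 percentage points for G0-G1, 8.04 for S and 23.5 for G2-M, all past the threshold. Thinned unmutated cells held 80.6 ± 10.7 UMIs of the G2-M gene list against 51.9 ± 12.8 (SD, n = 8), higher in 8 of 8 mice. Among cells with 7000 to 12000 UMIs before thinning, 144 unmutated and 280 mutated cells of 7 mice, the differences were -7.88 points for G0-G1 (adjusted p = 0.316, exact), -2.39 for S (0.406) and 10.3 for G2-M (0.141). Depth differed with phase and with class: the pooled median was 8344 UMIs in unmutated and 5830 in mutated G0-G1 cells. It was 13625 and 9020 in S cells, and 14427 and 10165 in G2-M cells. Whether the phase difference follows depth, or depth follows phase, was not tested.

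Zone scores moved on the LZ side. The LZ score, the mean level of 18 LZ genes relative to control genes, was -0.116 ± 0.054 in unmutated and 0.016 ± 0.058 in mutated cells (SD, n = 9). It was lower in unmutated cells in 9 of 9 mice, by -0.132 (adjusted p = 0.00879, exact two-sided sign-flip permutation test), with the lowest values in A3 in both classes. In cells thinned to 1 depth it differed by -0.099 and passed. Within phases it differed by -0.123 in S cells, which passed (7 mice, adjusted p = 0.0312, exact), and by -0.006 in G0-G1 cells (5 mice, adjusted p = 0.938, exact; 5 mice cannot give a raw p below 0.0625) and by -0.026 in G2-M cells (7 mice, adjusted p = 0.431, exact), neither of which passed. In cells with 7000 to 12000 UMIs it differed by -0.050 and did not pass (adjusted p = 0.141, exact). The DZ score, from 10 genes, was -0.139 ± 0.056 against -0.108 ± 0.042 and did not pass (adjusted p = 0.0547, exact), although without A1 it was -0.042 and passed (adjusted p = 0.0141, exact). Its difference was -0.052 in experiment 1 and 0.011 in experiment 2.

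Class switching differed modestly. IgM, the isotype before switching, was the constant region of 21.3% ± 7.1 of unmutated and 14.6% ± 4.81 of mutated cells (SD, n = 9), higher in 8 of 9 mice (adjusted p = 0.0396, exact two-sided sign-flip permutation test). M06 was again the exception, with 10% against 19.4%. The call was lost without any 1 of 7 mice (A1, A3 and M01 to M05), where the difference was 5.22 to 6.86 points, and kept without A2 or M06. In both classes most cells were IgG1, 75.2% of the pooled unmutated and 82.7% of the pooled mutated cells. Whether the differences themselves differed between the experiments could not be settled for 1 measure alone, since 6 and 3 mice cannot give a raw p below 0.0119 (exact two-sided permutation of experiment labels over mice), which is 0.107 after adjustment over the 9 measures. The DZ score was at that smallest p, and the raw p of the other measures was 0.286 to 1.

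**Figure D3:**
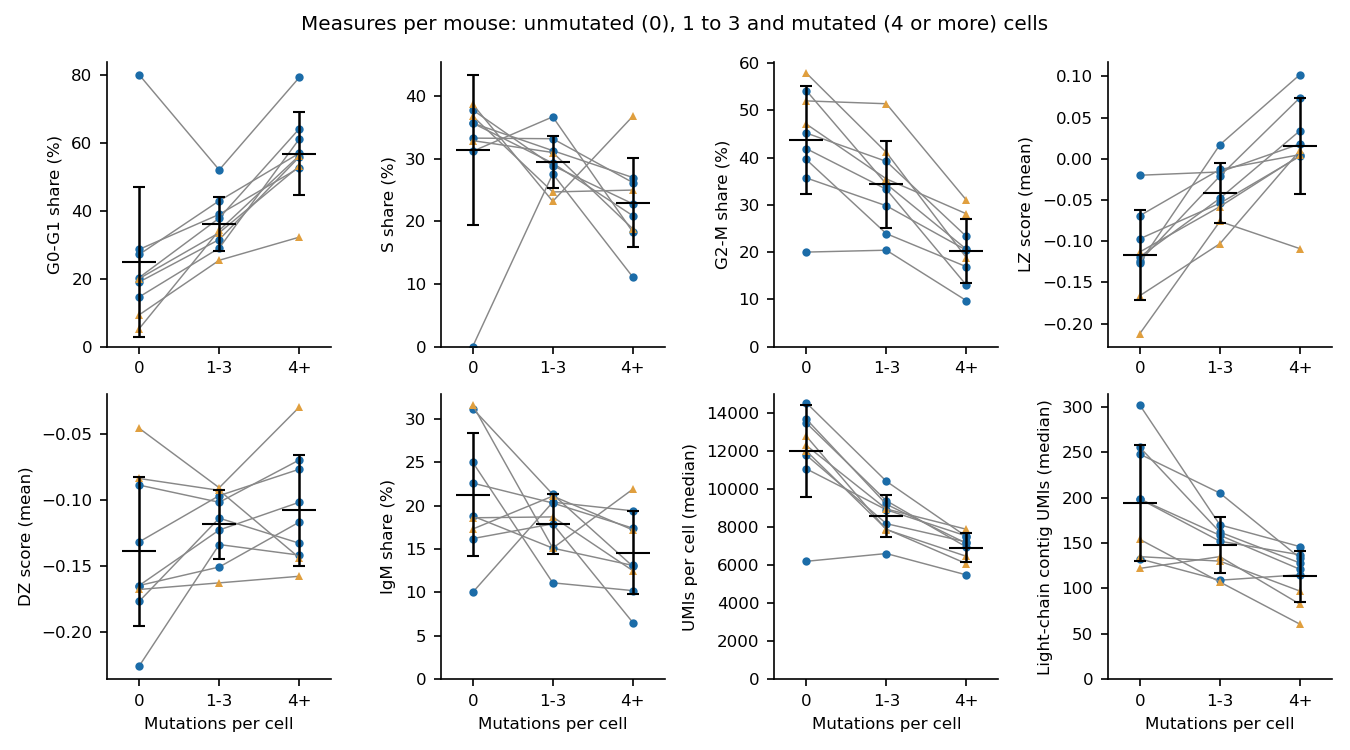
Values of each mouse in cells with 0, 1 to 3 and 4 or more mutations (x axis), with lines joining 1 mouse, blue circles for experiment 1, orange triangles for experiment 2, and black bars for the mean ± SD of 9 mice; shares are percent of cells, depths are medians in UMIs and zone scores are means per cell. The G2-M share, the UMIs and the light-chain UMIs lie higher and the LZ score lower in unmutated cells in all 9 mice, and M06 is the blue point at 80% in G0-G1 and 0% in S.

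For gene expression, UMIs were summed per mouse and class and compared within mouse by edgeR's quasi-likelihood test with Benjamini-Hochberg adjustment, the source of each adjusted p below. Of 7117 genes tested, 1159 (16.3%) were higher and 1169 (16.4%) were lower in unmutated cells at an adjusted p under 0.05. The counts of the gene lists below are to be read beside these shares, or those of the same fit. Most changes were small, with 23 genes over 2-fold higher and 41 over 2-fold lower, and the median over all genes was -0.01 on the log2 scale. Among the 2254 called genes that could be tested in both experiments, 2229 had the same sign in each. These genes were called with both experiments in 1 fit, so a shared sign was partly set by that choice. The share over all genes is not given, and the count does not test replication. In cells thinned to 1 depth 551 (10.8%) were higher and 548 (10.8%) lower of 5095 tested, and in cells with 7000 to 12000 UMIs 55 (1.34%) and 32 (0.782%) of 4090. The fold changes are log2 and the levels are CPM of the summed UMIs, and a sum over cells does not tell more cells with a transcript from more transcripts per cell.

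The 10 largest rises were led by *Slpi* and *Sub1*. *Slpi*, a secreted inhibitor of serine proteases, had 29.3 CPM in A3, a median of 294.5 and 3815 CPM in M06 in unmutated cells, against 16.4 to 40.5 CPM (median 32.2) in mutated cells. The groups overlapped only through A3, and *Slpi* was higher in unmutated cells in 9 of 9 mice, by 4.45 ± 0.32 (log2, SE, adjusted p = 6.00e-12). These are summed levels. In M06 a UMI of *Slpi* was found in 10% of its 10 unmutated and 11.1% of its 72 mutated cells, so 3815 CPM does not reflect a wider share of cells. The share was 18.7% against 17.2% in A2, and it was higher in unmutated cells in every mouse but M06. *Sub1*, a DNA-binding transcriptional coactivator, ran from 3.67 CPM in A3 to 487.3 in M06 (median 147.3) against 10.1 to 47.1 (median 15.6), higher in 8 of 9 mice, by 3.0 ± 0.26. A3 was the exception for *Sub1*, with 3.67 CPM in its 19 unmutated and 47.1 CPM in its 32 mutated cells.

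*Hsp90b1*, the HSP90 chaperone of the endoplasmic reticulum, had 278.7 to 1728 CPM (median 558.1) against 193.3 to 336.3 (median 251.4), a rise of 1.33 ± 0.19 (adjusted p = 1.08e-06). Within G0-G1 cells it was higher by 3.88 (adjusted p = 0.000562), while in S cells it was at 0.52 (0.0587) and in G2-M cells at 0.29 (0.2), and did not pass in either. *Pdia4*, a protein disulphide isomerase, rose by 1.24 ± 0.18, and *Derl3*, which acts in the export of misfolded proteins, by 1.35 ± 0.24. Both were lower in the unmutated cells of A3 and higher in those of the other 8 mice. The remaining genes among the 10 largest rises were *Fabp5* (2.11), a fatty acid-binding protein, *Atxn1* (1.88), a transcriptional repressor, *Ppa1* (1.64), the cytosolic pyrophosphatase, *Capg* (1.58), which caps actin filaments, and *Ass1* (1.29), an enzyme of arginine synthesis. *Ppa1* and *Atxn1* did not overlap between the classes, with 55 to 153.0 against 2.3 to 35.9 CPM for *Ppa1*.

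Of the plasma cell list, 6 of the 8 genes tested were higher and 0 lower (median 0.71). *Jchain*, which joins IgM and IgA units, had 869.0 to 4565 CPM (median 1310) in unmutated and 791.8 to 890.5 (median 831.4) in mutated cells, higher in 9 of 9 mice by 0.95 ± 0.13 (adjusted p = 1.27e-06). *Xbp1*, a transcription factor of the secretory programme, had 95.3 to 1072 CPM (median 235.2) against 84.6 to 174.9 (median 132.6) and was higher by 0.86 ± 0.14. *Mzb1*, a chaperone of B cells, was higher by 1.0 ± 0.17, *Creld2* by 0.73 and *Sec11c*, of the signal peptidase, by 0.70. *Irf4*, needed for plasma cells, was higher by 0.67 ± 0.24 (adjusted p = 0.0263) but fell short of the threshold without A1 (0.61), M01 (0.68) or M04 (0.40). The members that did not pass were *Slamf7* (0.18) and *Ell2* (-0.05).

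The 5 cells with the most *Slpi* held 48.3% of the *Slpi* UMIs of all unmutated cells, and how the transcripts of the plasma cell list were spread over cells was not measured. A UMI of *Slpi* was found in 31.8% of unmutated cells (exact 95% interval 27.7% to 36.2%) and 15.4% of mutated cells (13% to 18%), at median depths of 12614 UMIs and of 6075 to 7399 UMIs by number of mutations. After thinning to 4718 UMIs the shares were 20.5% and 10.8%, and at least 3 UMIs were found in 5.6% and 0.417%. A UMI of *Sdc1* or *Prdm1*, defining markers of plasma cells, was found in 26 unmutated cells (5.37%, 3.54% to 7.77%) and 2 mutated cells (0.241%, 0.0292% to 0.867%), and after thinning in 3.66% and 0.139%. More than 500 heavy-chain contig UMIs were found in 22 unmutated cells (4.55%), in 8 cells with 1 to 3 mutations (0.513%) and in 0 of 831 mutated cells, which allows a share of up to 0.361%. These intervals cover counting error only, and no cell type that should lack these genes was in the GC B cell sort from which to take the share given by free RNA.

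The sum of 7 plasma cell markers moved with the class, at 1489 to 6296 CPM (median 2268) in unmutated and 1401 to 1622 CPM (median 1515) in mutated cells, higher in 8 of 9 mice. Without the cells that held a UMI of *Sdc1* or *Prdm1*, a choice made after seeing the data that left 449 and 757 cells of 8 mice, 1234 genes (17.2%) were higher and 1176 (16.4%) lower. Of the plasma cell list 2 of 7 were then higher and 1 lower (median 0.17). *Slpi* was still higher, by 1.70 (adjusted p = 1.95e-08), as was *Jchain*, by 0.34 (0.00557), while *Xbp1* (0.19, adjusted p = 0.113), *Mzb1* (0.17, 0.188), *Derl3* (0.55, 0.0677) and *Pdia4* (0.08, 0.735) did not pass. *Sub1* was higher by 1.84 (5.55e-08) and *Hsp90b1* by 0.38 (0.000963). The share in G0-G1 differed by -38.2 points and the LZ score by -0.114 without the cells that held a UMI of *Sdc1* or *Prdm1*, and both passed. Without the cells that held a UMI of *Slpi*, a choice also made after seeing the data that left 321 and 639 cells of 8 mice, 865 of 6382 genes (13.6%) were higher and 822 (12.9%) lower, and the plasma cell list had 1 of 7 in each direction (median 0.12), near these shares. *Sub1* was then higher by 1.52 (adjusted p = 0.000245), *Jchain* by 0.19 (0.0228) and *Hsp90b1* by 0.33 (0.00631), the share in G0-G1 differed by -37.7 points and the LZ score by -0.097, and each of these passed.

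**Figure D4:**
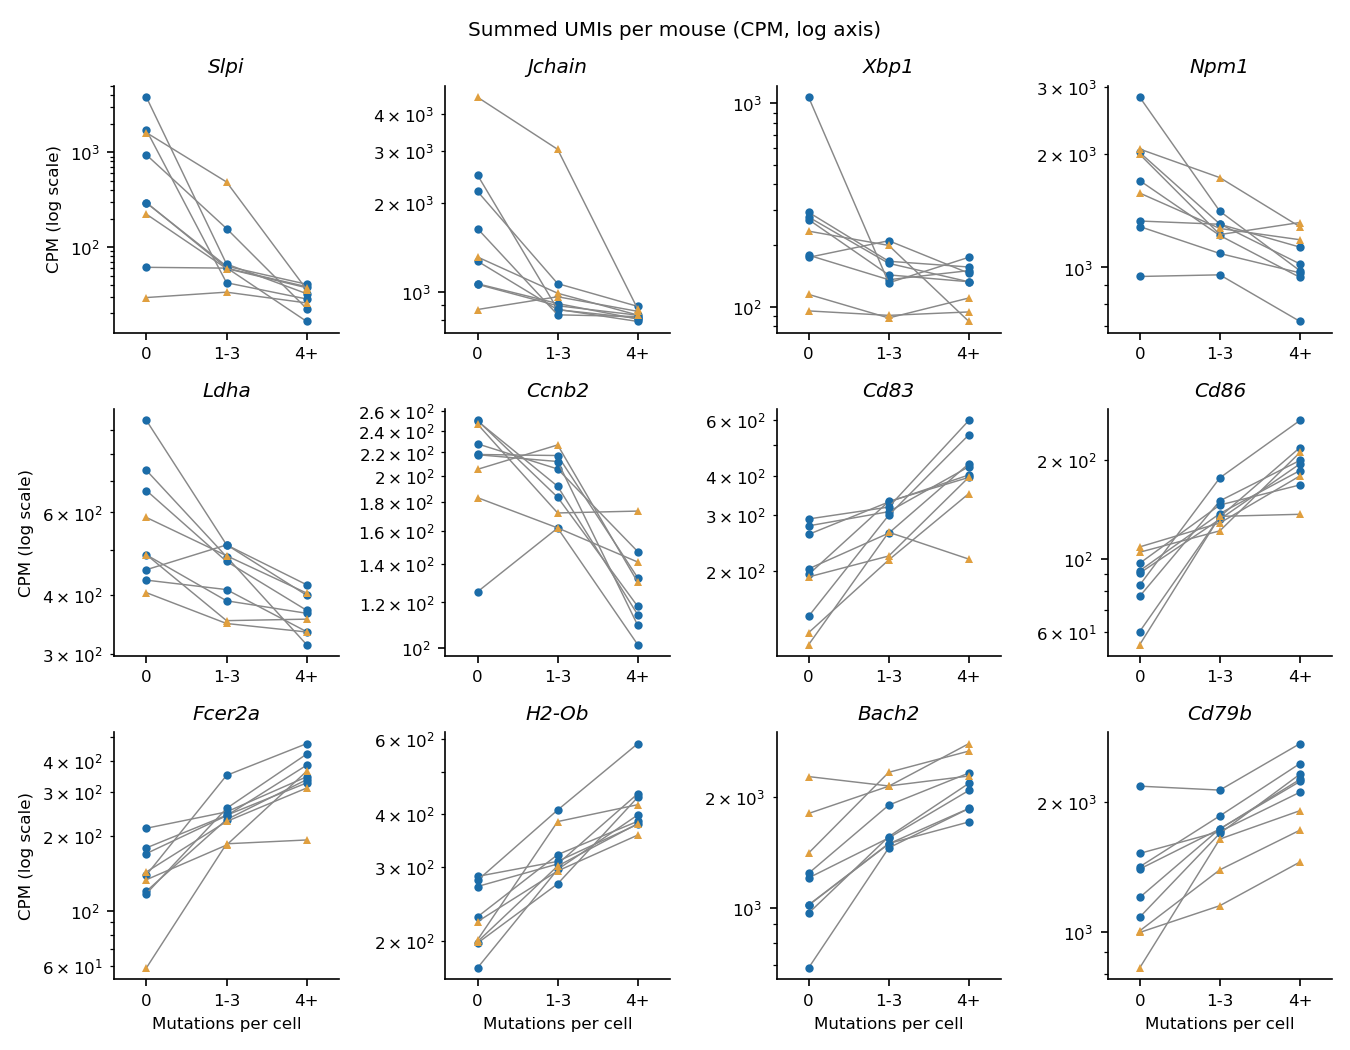
Summed UMIs of 12 genes in each mouse (y axis, CPM on a log scale) in cells with 0, 1 to 3 and 4 or more mutations (x axis), with lines joining 1 mouse, blue circles for experiment 1 and orange triangles for experiment 2. *Slpi* is higher in unmutated cells in 9 of 9 mice, *Cd86* and *H2-Ob* are lower in 9 of 9 mice without overlap (*Cd86* 55 to 109.1 against 137.1 to 264.6 CPM), and the cells with 1 to 3 mutations lie mostly between.

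Of the ribosome biogenesis list 10 of 14 were higher and 0 lower (median 0.52). *Npm1*, the nucleolar protein nucleophosmin, had 946.8 to 2819 CPM (median 1697) against 720.2 to 1315 (median 1022), higher in 9 of 9 mice by 0.70 ± 0.08 (adjusted p = 9.64e-08), and *Nolc1* and *Rrp9* were higher by 0.72 and 0.87. Cytosolic ribosomal proteins differed less, with 30 of 76 higher and 5 lower (median 0.09). In thinned cells 12 of 76 were higher and 3 lower (median 0.03), where 10.8% of all genes were called in each direction. *Rps2* did not overlap between classes (2994 to 5053 against 1947 to 2617 CPM), while *Rps27* was lower in 9 of 9 mice (-0.35 ± 0.05). *Myc*, the growth regulator that T cell help induces in selected cells, was higher by 0.81 ± 0.17 (adjusted p = 0.000337), in 7 of 9 mice, with 0 to 87.3 CPM (median 41) against 6.9 to 45.3 (median 22.6). It did not pass in thinned cells (0.67, adjusted p = 0.0564), without cells with a UMI of *Slpi* (0.49, 0.106), in S cells (0.22, 0.607), in G2-M cells (0.78, 0.0595) or in experiment 2 alone (0.16, 0.873).

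Of the glycolysis list 6 of 12 were higher and 0 lower (median 0.29). *Ldha*, which makes lactate, had 404.8 to 942.4 CPM (median 487.7) against 313.7 to 420.9 (median 365.9), higher in 9 of 9 mice by 0.65 ± 0.10 (adjusted p = 3.18e-06). *Pgam1* (0.62), *Pkm* (0.53) and *Tpi1* (0.49) were higher too. In cells with 7000 to 12000 UMIs *Ldha*, *Pkm* and *Tpi1* were at -0.02, -0.10 and -0.36 and did not pass.

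The S-phase and G2-M lists are the genes from which the phases were called, so their direction repeats the phase shares. Of the S-phase list 25 of 42 were higher and 0 lower (median 0.35), and of the G2-M list 45 of 54 were higher and 0 lower (median 0.47). *Ccnb2*, cyclin B2, had 125.3 to 250.4 CPM (median 218.2) against 101.2 to 173.6 (median 130.2), and was higher by 0.79 ± 0.09. *Tyms*, thymidylate synthase, was higher by 0.86 ± 0.12, but at -0.32 in cells with 7000 to 12000 UMIs. Among D cyclins, their kinases and inhibitors, 4 of 9 were higher and 1 lower (median 0.07), beside 16.3% and 16.4% of all genes. *Ccnd3*, the D cyclin of GC B cells, was higher by 0.21 ± 0.08 (adjusted p = 0.0386), but not past the threshold without A1 (0.22), M01 (0.20), M02 (0.21) or M05 (0.13). In thinned cells it was at 0.13 (adjusted p = 0.329), while it passed within S cells (0.35, 0.0355) and within G2-M cells (0.55, 0.0022). *Rbl2*, a pocket protein of resting cells, was lower by -0.54 ± 0.16, but in thinned cells it was at -0.42 and did not pass (adjusted p = 0.182). *Ccnd2* was too low to test, and in thinned cells 1 of 7 of this list was higher and 0 lower. That is near the 10.8% of all genes called in each direction there.

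Genes of the SHM machinery showed no single direction. Of the 20 tested, 6 were higher, 2 lower and 12 did not pass (median 0.12), where 16.3% of all genes were higher and 16.4% lower. *Polh*, the polymerase that makes most mutations at A and T, had 41.8 to 209.0 CPM (median 148.5) against 59.8 to 167.0 (median 100.8) and was higher in 8 of 9 mice by 0.39 ± 0.10 (adjusted p = 0.00262), whichever mouse was left out (0.33 to 0.43). *Hmces*, which binds abasic sites, was higher by 0.22 ± 0.08 (adjusted p = 0.0249), but not past the threshold without A1 (0.18), M02 (0.20), M03 (0.20) or M04 (0.18). *Fam72a*, which lowers the level of the uracil glycosylase UNG2, was higher by 0.59 ± 0.22, and not past the threshold without A2 (0.61), M01 (0.57), M02 (0.58) or M05 (0.55).

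The nuclease gene *Exo1* was higher by 0.52 ± 0.16, though not past the threshold without M01 (0.38), and *Apex1*, an abasic-site endonuclease, by 0.45 ± 0.13, though not without M01 (0.32) or M05 (0.34), nor in thinned cells (0.34, adjusted p = 0.17). *Ung*, the glycosylase gene, was at 0.43 ± 0.21 and did not pass (adjusted p = 0.115), except without M04 (0.67, adjusted p = 0.0169) and without cells with a UMI of *Slpi* (0.66, 0.041), and *Msh6*, of mismatch repair, was at 0.20 ± 0.12 (0.209). *Rev1*, a translesion polymerase, was lower by -0.42 (adjusted p = 0.000702). *Pcna*, higher by 0.38, is also in the S-phase list. Within S cells *Polh* was at -0.06 and *Exo1* at -0.07, and within G2-M cells *Polh* was at -0.09, *Hmces* at -0.02 and *Fam72a* at -0.18, none of which passed. *Apex1* was higher within G2-M cells by 0.79 (adjusted p = 0.0177) and was at 0.25 in S cells (0.431). Over the whole list 2 of 16 were higher and 2 lower in G2-M cells, 0 of 17 higher and 3 lower in S cells, and 0 of 10 higher and 1 lower in G0-G1 cells. Over all genes the shares were 6.44% and 4.64% in G2-M, 6.36% and 6.06% in S, and 5.64% and 2.99% in G0-G1 cells.

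Of the 14 genes of the LZ that were tested, 6 were lower in unmutated cells, 1 was higher and 7 did not pass (median -0.30). *Cd83*, a surface marker of LZ cells, had 117.3 to 292.4 CPM (median 195.4) against 218.4 to 598.3 (median 402.6), lower in 9 of 9 mice by -1.07 ± 0.10 (adjusted p = 4.39e-10). *Cd86*, a costimulatory ligand for T cells, had 55 to 109.1 CPM (median 90.8) against 137.1 to 264.6 (median 195.2), with no overlap, and was lower by -1.13 ± 0.11. *Fcer2a*, the low-affinity IgE receptor, had 58.7 to 214.9 CPM (median 139.2) against 192.7 to 471.7 (median 346.7) and was lower by -1.27 ± 0.10. A3 had the lowest *Fcer2a*, *Cd83* and *Cd86* of both classes.

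The other LZ genes past the threshold were *Cxcr5* (-0.72), *Slamf1* (-0.78), *Il4i1* (-0.64) and *Myc*, which was the 1 that was higher. *Icosl*, the ligand of ICOS on T cells, was lower by -1.55 ± 0.19, with 8.12 to 17.6 CPM (median 13.9) against 17.1 to 51.7 (median 41.9). Of the DZ list 2 of 8 were higher and 3 lower (median -0.14), beside 16.3% and 16.4% of all genes. *Cxcr4*, the receptor that holds cells in the DZ, was at -0.15 ± 0.11 and did not pass (adjusted p = 0.296), with 63.3 to 194.9 CPM against 73.4 to 142.3. *Gcsam* was higher by 0.47 ± 0.08, while *Foxo1* (-0.49 ± 0.09) and *Foxp1* (-0.77 ± 0.09) were lower, though *Foxp1* was at 0.16 in cells with 7000 to 12000 UMIs.

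All 11 MHC class II genes tested were lower in unmutated cells (median -0.67, range -0.97 to -0.39), and 10 of 11 in thinned cells (median -0.52). *H2-Ob*, a chain of the modulator H2-O, had 173.3 to 284.6 CPM (median 222.7) against 356.0 to 584.5 (median 397.1), with no overlap, and was lower by -0.85 ± 0.08 (adjusted p = 1.06e-09). *H2-Oa*, its partner, was lower by -0.97 ± 0.10, with 47.7 to 156.8 CPM against 179.9 to 375.1. In cells with 7000 to 12000 UMIs neither passed, with *H2-Oa* at 0.08 (adjusted p = 0.836) and *H2-Ob* at -0.10 (0.751). The peptide-loading gene *H2-DMa* was lower by -0.76, the invariant chain *Cd74* by -0.67 and the class II transactivator *Ciita* by -0.68.

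B cell receptor (BCR) signalling genes went the same way. Of 18 tested, 17 were lower and 0 higher (median -0.52), and *Cd81* (-0.16) did not pass. *Cd79b*, a signalling chain of the BCR, had 825.0 to 2172 CPM (median 1201) against 1450 to 2724 (median 2227), lower in 9 of 9 mice by -0.75 ± 0.06 (adjusted p = 8.41e-11). *Lyn*, a kinase of the first step, did not overlap (189.6 to 375.9 against 394.7 to 535.4 CPM) and was lower by -0.72 ± 0.08. *Cr2*, the complement receptor that takes up coated antigen, was lower by -1.18 ± 0.14, and the inhibitory receptor *Cd22* by -0.63.

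Genes of GC and B cell identity were lower as well, 12 of 17 with 0 higher (median -0.29). *Bach2*, a repressor of plasma cell fate, had 686.5 to 2266 CPM (median 1204) against 1707 to 2783 (median 2172), lower in 9 of 9 mice by -0.83 ± 0.08 (adjusted p = 5.02e-10). *Bcl6*, the repressor that GC B cells need, was lower by -0.53 ± 0.08, *Ebf1* by -0.75 ± 0.08 and *Fas* by -0.58 ± 0.09. *S1pr2*, which keeps cells in the GC, was lower by -0.24 ± 0.09 (adjusted p = 0.0404), but not past the threshold without any 1 of 7 mice (A1 to A3, M01 to M03 and M05), at -0.23 to -0.21. The 12 GC B cell markers summed to 5759 CPM in unmutated and 9214 CPM in mutated cells (medians), lower in 9 of 9 mice.

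Of the IL-4 and IL-21 list 7 of 10 were lower and 1, *Xbp1*, higher (median -0.44). *Il4ra* had 37.9 to 83.5 CPM (median 50) against 65.1 to 122.0 (median 89) and was lower by -0.79 ± 0.12, and *Il21r* was lower by -0.56 ± 0.11. Of the CD40 and NF-kB list 4 of 10 were lower and 0 higher (median -0.30), among them *Rel* (-0.51 ± 0.10) and *Birc3* (-0.41 ± 0.10). In thinned cells 1 of 9 of that list was lower, near the 10.8% of all genes that were lower there. *Birc3* did not pass in thinned cells (-0.32, adjusted p = 0.0704) or without cells with a UMI of *Slpi* (-0.25, 0.106). In cells with 7000 to 12000 UMIs *Il4ra*, *Birc3* and *Nfkb1* were at 0.01, 0.24 and 0.04.

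Beside *Icosl*, the 10 largest falls were in the following genes, which are on none of these lists. *Nxpe2* was lower by -1.72 ± 0.16, with 10.2 to 55.7 CPM (median 21.3) against 47.1 to 80.1 (median 64.2), in 9 of 9 mice. *Pxdc1* was lower by -1.58, *Trim7* by -1.51, *Cnr2*, the cannabinoid receptor of immune cells, by -1.37, *Arhgap6* by -1.37, *Cyp4f18*, a cytochrome that oxidizes lipids, by -1.36, *Klhl14* by -1.36, *Irak2*, a kinase of Toll-like receptor signalling, by -1.33, and *Sema7a*, a membrane semaphorin, by -1.33. *Cnr2* did not overlap between the classes, at 0 to 16.6 against 21.3 to 34 CPM.

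Among the remaining lists, memory precursor genes had 2 of 4 lower, *Cd38* and *Nt5e* (median -0.51), and *Cd38* (-0.68, adjusted p = 0.0494) lost its call without any 1 of 6 mice (A1, A3, M01 and M04 to M06), at -0.72 to -0.41. *Nt5e* (-0.68) lost it without M05 (-0.57). *Gpr183* (-0.35) and *Klf2* (0.25) did not pass, although *Gpr183* did without M04 (-0.70, adjusted p = 0.0151) and *Klf2* within G0-G1 cells (1.76, 0.00725), and *Ccr6* was too low to test. The BCL-2 family had 0 of 7 called in either direction (median -0.13). Interferon genes had 1 of 4 higher, *Bst2*, and 3 lower, and dissociation stress genes had 1 of 8 higher, *Hspa8*, and 2 lower, *Zfp36* and *Jund*. Among all genes 16.3% were higher and 16.4% lower, and the counts of the stress genes lie near those shares. *Ly75*, which encodes DEC-205, was at 0.04 ± 0.16 (adjusted p = 0.873), with 27.8 to 69.6 against 24.4 to 71.2 CPM.

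**Figure D5:**
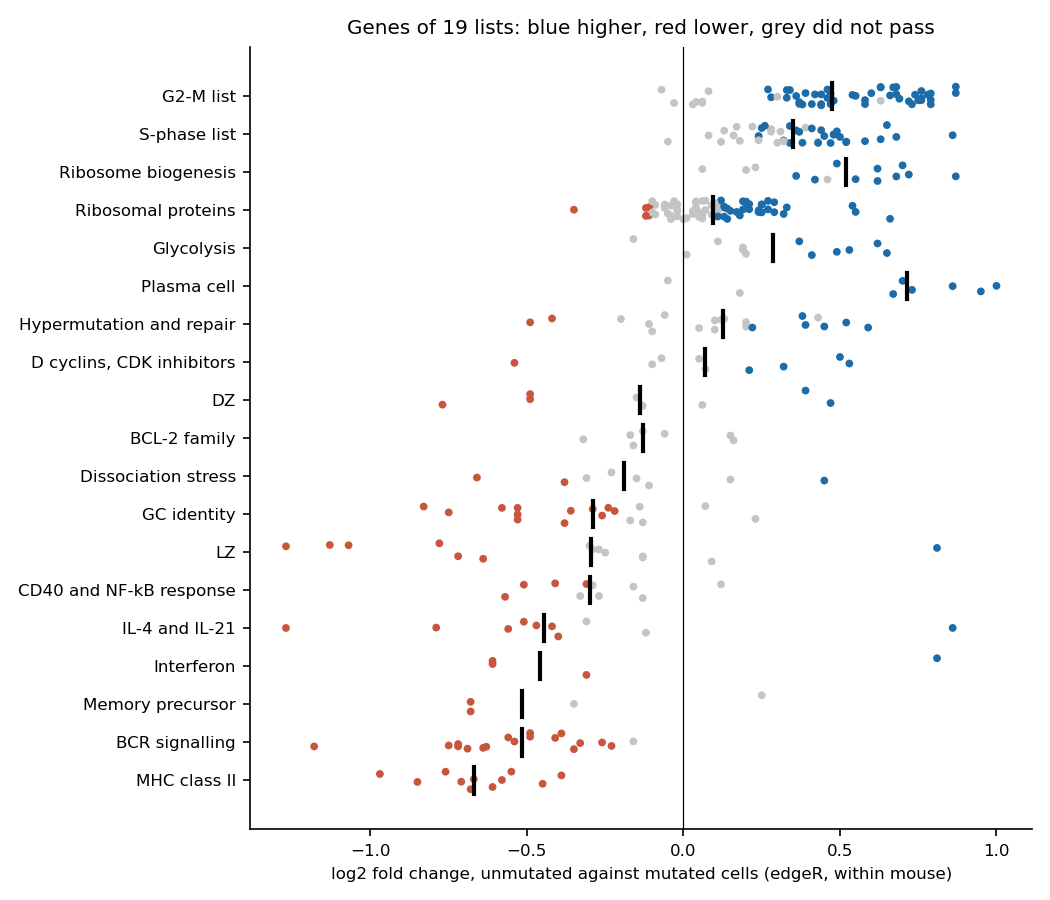
log2 fold change of unmutated against mutated cells (x axis, edgeR within mouse, 9 mice) for the tested genes of 19 lists (rows), 1 point a gene, blue if higher, red if lower and grey if not past an adjusted p of 0.05, with a black bar at the median of each list. All 11 MHC class II genes and 17 of 18 BCR signalling genes lie below 0 and are red, and no gene of the G2-M, S-phase, ribosome biogenesis, glycolysis and plasma cell lists is red.

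The comparison was repeated within each phase, since the phases themselves differed between classes. In G0-G1 cells (74 unmutated and 287 mutated cells of 5 mice) 166 of 2941 genes (5.64%) were higher and 88 (2.99%) lower. In S cells (161 and 178 cells of 7 mice) 297 (6.36%) were higher and 283 (6.06%) lower of 4672, and in G2-M cells (206 and 154 cells of 7 mice) 308 (6.44%) and 222 (4.64%) of 4785. The restriction to S or to G2-M cells was added after seeing the data. Fewer cells enter each of these fits, so a lost call does not show that the classes were alike there.

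MHC class II genes were lower for 9 of 11 in S cells (median -0.55) and for 9 of 11 in G2-M cells (median -0.41), and for 0 of 11 in G0-G1 cells (median -0.18). BCR signalling genes were lower for 12, 5 and 1 of 18 in S, G2-M and G0-G1 cells. LZ genes were lower for 8 of 11 in S cells (median -0.78) and for 2 of 10 in G2-M cells (median -0.11), while in G0-G1 cells 1 of 10 was lower and 2 were higher (median -0.03). *Cd83* was at -1.06 in S cells, against -0.33 in G2-M and -0.33 in G0-G1 cells. Of the CD40 and NF-kB list 3 of 6 were lower in S cells, 0 of 7 were called in G2-M cells, and in G0-G1 cells 0 of 6 were lower and 1 higher. *Bach2* was at -1.08 in G0-G1, -0.98 in S and -0.75 in G2-M cells. Differences between phases were not tested.

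Within phases the plasma cell list had its highest median in G0-G1. All 6 tested in G0-G1 cells were higher (median 2.20), with *Jchain* at 2.81, *Mzb1* at 2.4, *Xbp1* at 2.17 and *Slpi* at 6.67, while in S and in G2-M cells 2 of 7 were higher in each (medians 0.30 and 0.09). *Slpi* was higher in S cells by 1.72 (adjusted p = 0.000544) and in G2-M cells by 2.49 (adjusted p = 5.60e-07). Ribosomal protein genes were higher for 10 of 76 in G0-G1, 38 in S and 42 in G2-M cells, and glycolysis genes for 0 of 9, 6 of 10 and 7 of 9. The G0-G1 fit rests on 74 unmutated cells over 5 mice, with 13 in the smallest class of a mouse, and was not repeated without the cells that held plasma cell markers.

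The experiments were also fitted alone. In experiment 1 alone 1012 genes were higher and 914 lower, and in experiment 2 alone, with 3 mice, 156 and 206. *Slpi* was higher by 4.64 and 3.89, *Cd86* lower by -1.22 and -0.90, *Cd83* by -1.03 and -1.15, *H2-Ob* by -0.84 and -0.85, and *Bach2* by -0.97 and -0.52. When the difference between experiments was itself tested by edgeR, 1 gene of 7117 (0.0141%) passed, *Zeb2*, and 266 had an unadjusted p under 0.05.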

How the data were processed

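Per the labels, the samples are mRNA, hashtag and immunoglobulin libraries of pools, and the list of mice that the authors deposited gives the condition and the 2 hashtags of each mouse. The counts the authors deposited are UMIs per gene, hashtag and cell or per contig, from Cell Ranger with the mm39 reference and not normalized. The notes of the submitters name Cell Ranger 6.0.1 and Seurat 5.1.0, and the file headers Cell Ranger 8.0.1. The members and gene lists were chosen with earlier results of these data known.

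Of 34657 barcodes in both pools, 27163 were assigned to 1 mouse with HTODemux in Seurat 5.3.0 (positive quantile 0.99, exactly both hashtags of a mouse). Phases came from CellCycleScoring and zone scores from AddModuleScore. Mice with at least 10 cells per class entered. Summed UMI counts were filtered (filterByExpr), scaled (TMM) and fitted by quasi-likelihood in edgeR 4.0.16 under R 4.3.3, calling an adjusted p under 0.05, with the mouse as a block, since both classes come from the same animal. In simulated counts for this comparison, 64% of 100 genes changed by 0.5 (log2) and 91% of 100 changed by 1 were recovered, with 5 false calls among 6986 genes. The changed genes were drawn above a minimum mean count, and no other gene differed between the classes. These rates were therefore not measured for genes of low count or for as many changed genes as were called here.

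The text names the 10 largest called rises and falls (mean log2 CPM over 4, one sign in both experiments), a list of 22 GC genes, and up to 4 genes per list, without immunoglobulin loci; others named were picked after seeing their values. Not every gene of the lists is reported. The other steps ran in Python 3.11.15 (scipy 1.17.1, pandas 2.3.3, numpy 2.4.6). DESeq2 1.42.0 was an alternative.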

Additional observations from a re-analysis of the deposited data

Results flagged for a closer look

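Of 29 sets of 9 differences within mouse (the 9 measures and the 20 genes with the largest rises and falls), 6 had 1 mouse far from the others. Chance would give about 1 set in 20 only if all mice had an equal spread. All 6 sets were in M06 or A3, the mice with the fewest unmutated cells, so that rate cannot be applied to them. In M06, with 10 unmutated cells, the S share differed by -11.1 percentage points. In the same mouse the differences of log2(CPM + 1) were -6.31 for *Trim7* and -5.05 for *Cnr2*, both at 0 CPM in its unmutated cells. That library was the smallest, with 71821 UMIs, so 0 CPM is near its floor and these sizes depend on the added 1. For *Sema7a* the difference was 0.30, at 139.2 against 112.7 CPM, where the other 8 mice were lower in unmutated cells. In A3, with 19 unmutated cells, the differences were -3.37 for *Sub1* and -2.73 for *Derl3*, at 3.67 CPM each in unmutated cells, where the other 8 mice were higher.

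*Zeb2*, a transcriptional repressor, was the 1 gene whose class difference itself differed between experiments, by -3.09 ± 0.50 on the log2 scale (experiment 2 minus experiment 1, adjusted p = 0.00459, edgeR interaction term). In experiment 1 it had 16.2 to 58.5 CPM in the unmutated cells of 5 mice and 0 in M06, against 4.6 to 12.4 CPM in mutated cells. In experiment 2 it had 3.67 to 15.6 CPM in unmutated and 12.8 to 37.8 CPM in mutated cells. *Zeb2* was not among the genes tested in either experiment fitted alone. Its 0 CPM in M06 and 3.67 CPM in A3 are near the floor, in unmutated libraries of 71821 and 272736 UMIs.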

How the results depend on the processing

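Of 35 settings, 7 were added after seeing the data. The mouse was the block of the comparison because both classes come from the same animal, and with no replicate block 977 genes were higher and 988 lower. DESeq2 gave 959 and 934, size factors by relative log expression 1200 and 1131, no filter on low counts 1319 and 1091, and 3 classes in 1 fit 1475 and 1361. With each mouse left out in turn the counts were 879 to 1178 and 923 to 1171. Counts moved by over 1.5 times in experiment 2 alone (156 and 206), thinned cells (551 and 548), G0-G1 cells (166 and 88), S cells (297 and 283), G2-M cells (308 and 222), IgM cells (13 and 17, 61 cells of each class in 4 mice) and cells with 7000 to 12000 UMIs (55 and 32). Fewer cells entered most of these fits.

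With each mouse left out in turn the differences were -36 to -29.5 points for G0-G1, 7.54 to 10.8 for S, 21.6 to 25.2 for G2-M, 5.22 to 8.68 for IgM, -0.042 to -0.024 for the DZ score, -0.143 to -0.120 for the LZ score, 4815 to 5605 UMIs per cell, and 10.1 to 14.2 heavy-chain and 71.2 to 88.5 light-chain contig UMIs. The S and IgM calls were lost in 7 of 9 of these settings each. No measure could pass in experiment 2 or in IgM cells, where 3 and 4 mice cannot give a p below 0.25 and 0.125. Values that did not pass, in the order G0-G1, S, G2-M, LZ and IgM, were -30, 7.92, 22.1, -0.131 and 7.36 in experiment 1, and -35.7, 9.28, 26.4, -0.132 and 5.29 in experiment 2. In IgM cells they were -26.1, 23.2, 2.88 and -0.067 for the first 4. In cells with 7000 to 12000 UMIs they were -7.88, -2.39 (a reversed sign), 10.3, -0.050 and 16.8. The S and IgM differences did not pass against cells with 3 or more (7.21 and 6.73) or 1 or more mutations (4.24 and 4.48). The IgM difference did not pass with cells assigned by their highest hashtags (6.49), with no filter on cells (6.41), or in G0-G1 (18.9), S (5.5) and G2-M cells (0.712), nor did the LZ score in G0-G1 (-0.006) and G2-M cells (-0.026). The cause was not tested. The planned phase call from gene-list sums of 0 was not run to a value, because almost no thinned cell was at 0.

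Among the genes chosen by the naming rules above and called in the main comparison, those whose sign changed did so at the following log2 values. Genes not called in the main comparison are left out. *Ifi27l2a* in cells with 7000 to 12000 UMIs was the 1 past the threshold. In G0-G1 cells they were *Hmces* -0.45, *Ccnd3* -0.38, *Gcsam* -0.28, *Birc3* 0.09, *Nfkb1* 0.31, *Cdk4* -0.40, *Il4ra* 0.14, *Il21r* 0.03, *Ifi27l2a* 0.46, *Tpi1* -0.48, *Zfp36* 0.18 and *Jund* 0.05. In S cells they were *Polh* -0.06, *Exo1* -0.07, *Cdk4* -0.03 and *Tyms* -0.03. In G2-M cells they were *Pdia4* -0.41, *Polh* -0.09, *Hmces* -0.02, *Fam72a* -0.18, *Birc3* 0.17, *Cdc20* -0.02 and *Ccnb2* -0.10. In cells with 7000 to 12000 UMIs they were *Foxp1* 0.16, *Birc3* 0.24, *Nfkb1* 0.04, *H2-Oa* 0.08, *Apex1* -0.08, *Cdk4* -0.10, *Il4ra* 0.01, *Ifi27l2a* 0.55, *Ldha* -0.02, *Pkm* -0.10, *Tpi1* -0.36, *Zfp36* 0.21, *Hspa8* -0.01, *Tyms* -0.32 and *Ccne2* -0.15. In IgM cells they were *S1pr2* 0.19, *Polh* -0.02, *Gcsam* -0.00, *Apex1* -0.17, *Nolc1* -0.17 and *Cdc20* -0.14. The others were *Pdia4* at -0.12 without cells with a UMI of *Slpi*, *Cdk4* at -0.04 in experiment 2 and *Irf7* at 0.00 in thinned cells.

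Limits are the 10 unmutated cells of M06, the depth gap between classes, and the shared base of the light-chain joint. The mice are those of the authors' list. The p-values rest on how the difference within a mouse varied from mouse to mouse, with the counting noise of the summed UMIs in the gene tests.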

Other observations

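Detection of plasma cell transcripts varied between mice. A UMI of *Sdc1* or *Prdm1* was found in 6.25% to 10% of the unmutated cells of M01, M03 to M06 and A1, in 2.67% of those of A2 and in 0 of those of M02 and A3. In mutated cells it was found in A1 (1.56%) and A2 (1.15%).

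Light-chain mutations of the cells with 1 to 3 mutations replaced an amino acid in 46.8% of cases, against 63.4% in mutated cells, while heavy-chain mutations did so in 76.2% and 74.4%. The silent base at light-chain position 291 was changed in 425 of the 1558 cells with 1 to 3 mutations and in 285 of the 831 mutated cells. With that base left out, 83% and 79.8% of the light-chain mutations replaced an amino acid, so the lower share in cells with 1 to 3 mutations rests on it. In the heavy chain, 51% of the mutations of cells with 1 to 3 mutations were in the favoured triplets, against 44.7% in mutated cells. In the light chain, where such bases were 40 of 328 (12.2%), the shares were 20.9% and 29.1%, but 37% and 36.7% with position 291, which is in no such triplet, left out.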
